A study of Mus musculus with 20 samples.

Results

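The transcripts of 9 enzymes of the tricarboxylic acid cycle were followed in Hepa1-6 cells, an established mouse hepatoma line, while glutamine in the medium was taken away and given back. The members are Sucla2, Mdh1, Mdh2, Cs, Idh2, Idh3a, Ogdh, Dlst and Fh1, and every probe whose symbol in the platform annotation is one of these was used. This gave 11 probes of 9 genes, among 17280 probes and 13406 gene symbols. Each of 20 spotted arrays compared RNA of 2 sets of flasks, both in medium with 25 mM glucose. The experimental flasks, called varied here, received no glutamine at the start, 4 mM after 24 h, none after 48 h and 4 mM after 72 h of a 96 h experiment (Cy5). The control flasks, called constant here, were given fresh medium with 4 mM glutamine at the same exchanges (Cy3). The arrays belong to 11 numbered time points, of which time points 5 and 11 have 1 array and the others 2, the second titled with an r. Sampling hours and the glutamine present at each sampling are not in the labels, so no time point was tied to the presence or absence of glutamine. The labels also do not say what r marks, so p-values measure the spread between these arrays and time points, which may be technical. A single tumour line grown to confluence was used, which limits it as a model of liver cells.

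The cycle oxidises acetyl groups in the mitochondrial matrix and hands the electrons to the respiratory chain. Glutamine feeds it from the side: it is converted to glutamate and then to 2-oxoglutarate, the substrate of the complex that holds Ogdh and Dlst, and this entry replaces cycle intermediates that are drawn off for synthesis. Proliferating hepatoma cells are known to use glutamine as such a source of carbon.

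Values are log2 ratios, likely of varied over constant, after each array was centred on its median, so that every value is relative to the middle probe of its array. Base 2 is an assumption, and the direction follows from the order of the channels in the labels. Dyes were not swapped, so that dye bias of a gene and a steady difference between flasks cannot be told apart. Between 4269 and 8269 probes had a value on an array, and the number of arrays limits the precision. The arrays of a time point correlated with r between 0.518 and 0.691 across probes at 7 time points, but with r = 0.0539 at time point 6 and r = -0.0168 at time point 10. On the array of time point 5, and on 1 array of time point 6 (the first), spots at the first places of every run of 20 probe numbers were raised. Results are therefore also given for a reduced set of 18 arrays, without the second arrays of time points 6 and 10 and without spots at the first of every 20 places. This set was thus chosen from the data, and it keeps the raised array of time point 6. Of the hepatocyte markers Alb, Krt8, Hnf4a, Apoa1, Apoa2 and Fgb, all 6 had enough values to be tested, and ratios do not show how abundant a transcript was. Of the other 7 listed hepatocyte markers, among them Afp and Ttr, none had enough values for the test.

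Of the members, 2 were higher in the varied flasks on average over the experiment, and they act at separate steps of the cycle. Sucla2, the ATP-forming subunit of succinyl-CoA ligase, averaged 0.33 ± 0.14 on the log2 scale over time points (SD, n = 11), which is 1.26-fold. Mdh2, the mitochondrial malate dehydrogenase that makes oxaloacetate, averaged 0.29 ± 0.13 (SD, n = 11), which is 1.22-fold. The other 5 members that could be tested averaged between -0.14 and 0.09 and were not called. Idh3a and Ogdh had too few values for a test. In a bulk culture, more cells with a transcript and more of it per cell cannot be told apart. Nor can a dye bias of these 2 genes, since dyes were not swapped.

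These calls come from limma, which set the average of the time-point values against 0, with Benjamini-Hochberg adjustment over 4752 genes that had a value at 9 or more time points. Higher calls numbered 2 of the 7 members tested, against 13.6% of all genes tested, and lower calls 0 of 7, against 9.05%. Without centring, 2849 genes and 4 members were called higher and 46 genes and 0 members lower. At an unadjusted p under 0.05, Fh1 was the only member on the lower side. An exact two-sided sign-flip test over time points, run on all genes, also called Sucla2 and Mdh2 and no other member. The median of the 7 means was 0.04, beside 0.02 over all genes tested, and 4 of the 7 lay above 0, beside 54.2% of all genes. In the reduced set the called members were again Sucla2 and Mdh2, against 20.6% of 4277 genes called higher and 12.2% called lower. They were also the called members on the same 18 arrays with the first 4 of every 20 places left out on the raised ones, a setting chosen after seeing the data, with 23.4% of genes called higher and 12.8% lower. The test treats time points as independent, which neighbouring time points of one culture series need not be.

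**Figure D1:**
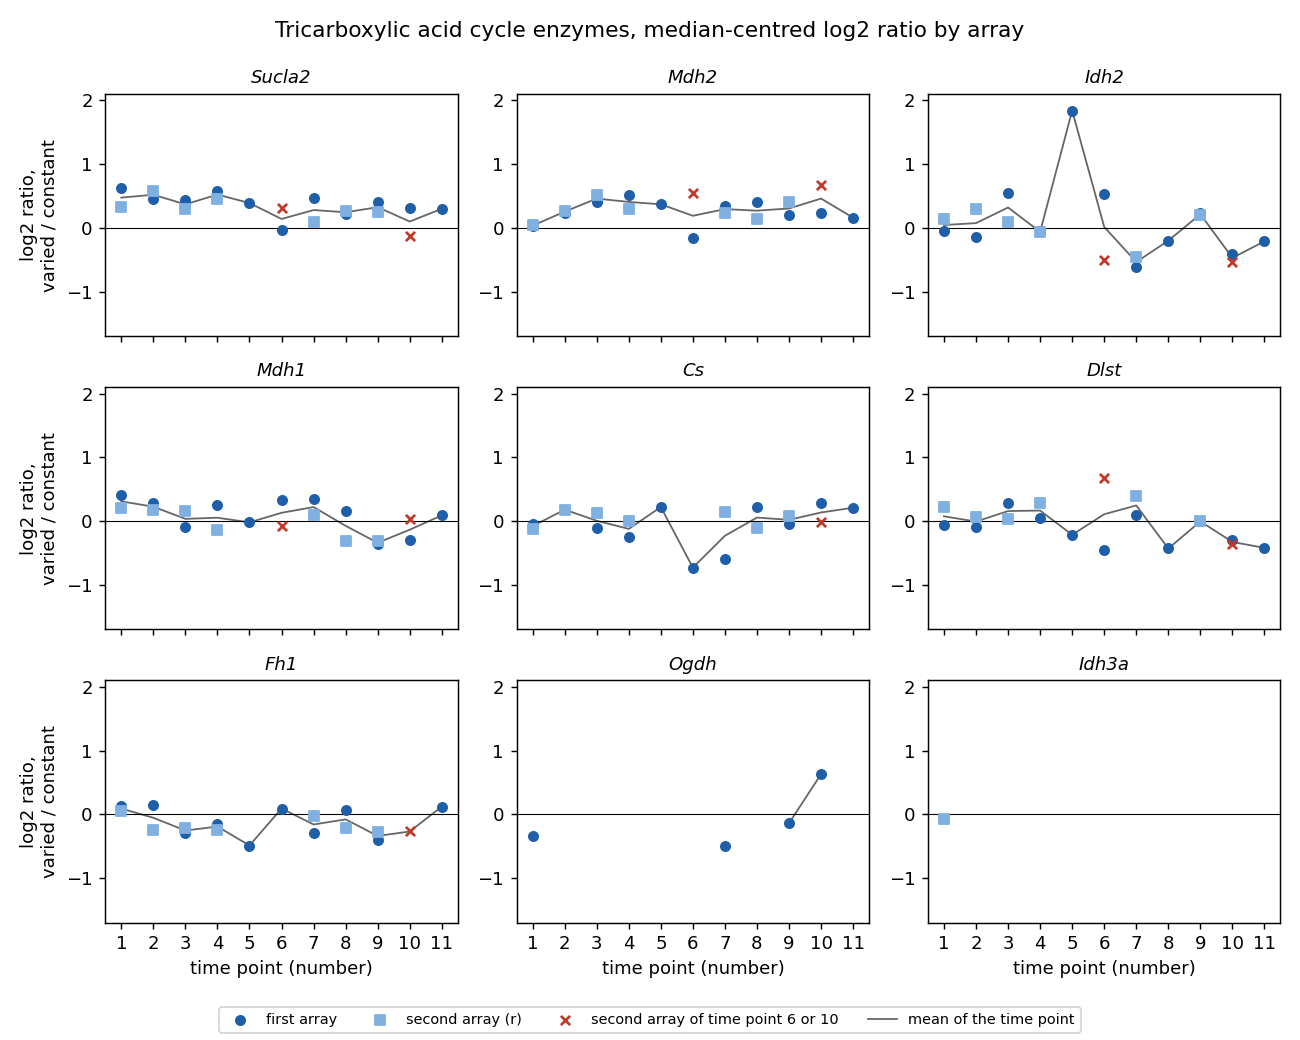
Median-centred log2 ratio of varied over constant flasks for each of the 9 genes, by time point number. Circles are first arrays, squares second arrays, crosses the second arrays of time points 6 and 10, and the line joins the time-point means. Sucla2 lies above 0 on 18 of 20 arrays and Mdh2 on 19, whereas the other members fall on both sides of 0, or have few values.

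Succinyl-CoA ligase turns succinyl-CoA into succinate and keeps the energy of the bond in a nucleotide. Sucla2 confers specificity for ATP, Suclg2 for GTP, and Suclg1 is the subunit shared by both forms. The gene lies at chr14:73552786-73596144 in GRCm38.p6, and its values came from probe 7210 on 19 arrays. At time point 6 the second array had a value only for the other probe, 9105, which was blank on all other arrays. At time points 1 to 4 the arrays of Sucla2 read 0.62 and 0.33, 0.46 and 0.58, 0.44 and 0.30, and 0.59 and 0.46. The array of time point 5 read 0.39, those of time point 6 read -0.03 and 0.31, and those of time point 7 read 0.47 and 0.09. At time points 8 to 10 the arrays read 0.22 and 0.27, 0.40 and 0.25, and 0.32 and -0.12, and the array of time point 11 read 0.30. Sucla2 was thus above 0 on all but 2 arrays, the first of time point 6 and the second of time point 10, and 4 of its 5 highest time-point means fell at time points 1 to 4. Its adjusted p was 0.000920, and its mean was above 0 at 11 of 11 time points. Arrays of a time point differed by 0.15 at the median and by 0.44 at most. Its mean in the reduced set was 0.34 ± 0.15 (SD, n = 11, limma adjusted p = 0.000276). The block of 540 probe numbers that holds probe 7210 had a median above that of the array on 17 of 20 arrays, by 0.13 on average. With arrays centred within such blocks, the mean of Sucla2 was 0.20 and stayed called (limma adjusted p = 0.00461).

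Mdh2 closes the cycle by oxidising malate to oxaloacetate, and it also takes part in the shuttle that carries electrons of cytosolic NADH into mitochondria. The gene lies at chr5:135778649-135790386 in GRCm38.p6, and probe 6466 gave a value on all 20 arrays. At time points 1 to 4 the arrays of Mdh2 read 0.03 and 0.04, 0.24 and 0.27, 0.40 and 0.52, and 0.52 and 0.30. The array of time point 5 read 0.37, those of time point 6 read -0.16 and 0.54, and those of time point 7 read 0.35 and 0.24. At time points 8 to 10 the arrays read 0.40 and 0.14, 0.21 and 0.40, and 0.24 and 0.68, and the array of time point 11 read 0.16. Mdh2 was close to 0 at time point 1, where Sucla2 was near its highest, and the first array of time point 6 was its only array below 0. Its adjusted p was 0.00149, with a mean above 0 at 11 of 11 time points. Arrays of a time point differed by 0.19 at the median and by 0.70 at most, at time point 6. Mdh2 averaged in the reduced set 0.25 ± 0.17 (SD, n = 11, limma adjusted p = 0.00457), with time point 6 below 0 at -0.12. With block centring its mean was 0.30 (limma adjusted p = 0.000627).

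Sucla2 and Mdh2 were also among the members whose ratios moved least. Of all genes tested, 6.31% had a smaller SD over time points than Sucla2 and 4.12% a smaller one than Mdh2, where the median SD over genes was 0.24. By level of the mean, 92.7% of genes lay below Sucla2 and 90.1% below Mdh2. The means of Sucla2 and Mdh2 themselves differed by 0.04 ± 0.20 (SD of the difference over 11 time points), which was not tested.

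The promoter windows of Mdh2 and Sucla2, the called members, are shown with that of Mdh1, the cytosolic counterpart of Mdh2, because these are the genes compared below. Each is the 250 bases before the annotated start, from RefSeq on GRCm38.p6, written 5' to 3' on the strand of the gene, with capitals for motif matches. The windows are chr5:135778399-135778648 on the plus strand for Mdh2, chr14:73552536-73552785 on the plus strand for Sucla2 and chr11:21571935-21572184 on the minus strand for Mdh1.
Mdh2: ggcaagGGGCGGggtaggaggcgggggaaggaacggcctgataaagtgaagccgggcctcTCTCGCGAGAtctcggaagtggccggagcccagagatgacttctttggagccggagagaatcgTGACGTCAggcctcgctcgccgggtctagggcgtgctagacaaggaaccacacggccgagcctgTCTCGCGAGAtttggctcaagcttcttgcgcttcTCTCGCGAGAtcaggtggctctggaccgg
Sucla2: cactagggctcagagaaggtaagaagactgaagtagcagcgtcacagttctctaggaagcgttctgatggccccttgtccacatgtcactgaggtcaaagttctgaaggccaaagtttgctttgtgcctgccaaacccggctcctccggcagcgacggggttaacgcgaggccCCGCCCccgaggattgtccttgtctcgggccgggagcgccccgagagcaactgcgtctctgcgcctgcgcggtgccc
Mdh1: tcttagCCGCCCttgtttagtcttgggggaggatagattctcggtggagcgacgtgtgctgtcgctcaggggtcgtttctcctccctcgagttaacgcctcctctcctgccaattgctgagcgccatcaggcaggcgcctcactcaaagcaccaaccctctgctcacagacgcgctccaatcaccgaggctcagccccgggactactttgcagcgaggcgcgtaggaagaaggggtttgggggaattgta
The 10-base palindrome found most often in the Mdh2 window is TCTCGCGAGA, with 3 copies that start 190, 63 and 29 bases before the gene's start. Among 32851 windows of the same length, 0.39% hold this palindrome at all, and 2 windows, of 2 genes, hold 3 or more copies. This motif was chosen because the Mdh2 window repeats it, so its frequency there is no test. The Mdh2 window also holds TGACGTCA, the cyclic AMP response element, 127 bases before the start (present in 1.55% of windows), and the GC box GGGCGG (32.7%). Among the members, TGACGTCA was also found in windows of Ogdh. The Sucla2 and Mdh1 windows each hold 1 GC box, on the opposite strand, as the capitals CCGCCC show. GC content was 63.2% in the Mdh2 window, 61.2% in that of Sucla2 and 59.2% in that of Mdh1, beside a median of 52.4% over all windows. Both strands were searched, and the motifs did not overlap in these windows. The Idh2 window (chr7:80115351-80115600, minus strand) and some of those of Ogdh lie inside the gene spans given here, not before them. Windows were found for 8 of the 9 members. None of them holds TCAAGGTCA (the element of oestrogen-related receptors, in 0.387% of windows), CCGGAAGT (a GABPA element, 2.88%) or TGATGNAA (the C/EBP-ATF response element, 3.45%). The E-box CACGTG (6.02%) was found among the members in windows of Ogdh alone. A match is a description of letters, not of binding.

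Both malate dehydrogenases catalyse the same reaction in different compartments, and the arrays gave them different ratios. Mdh1, the cytosolic enzyme and its probe 14742 at chr11:21556692-21571934, had a value on all 20 arrays, from -0.36 through a median of 0.09 to 0.41. It was above 0 on 12 arrays and below 0 on 8, with its highest time-point mean of 0.31 at time point 1 and its lowest of -0.34 at time point 9. At time point 1 it therefore read above Mdh2, and at time point 9, where its arrays read -0.36 and -0.32, well below it. The mean of Mdh1 was 0.04 ± 0.18 (SD, n = 11, limma adjusted p = 0.606), and with block centring it was 0.18 (adjusted 0.0676).

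**Figure D2:**
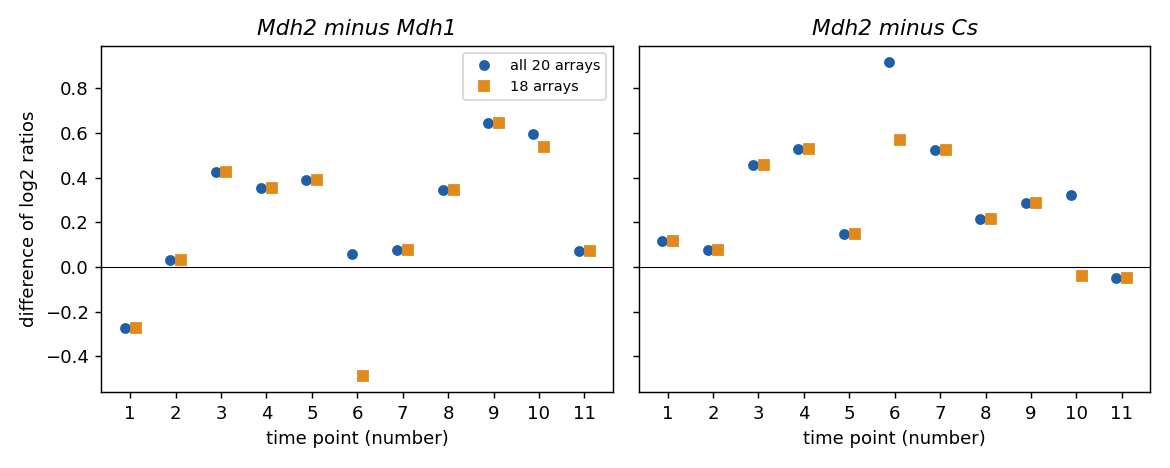
Difference of log2 ratios between Mdh2 and Mdh1 (left) and between Mdh2 and Cs (right) at each time point. Circles use all 20 arrays and squares 18 arrays. With all arrays Mdh2 lies above each partner at 10 of 11 time points.

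Related enzymes were compared on the same arrays in 7 pairs. Of these, 5 had enough shared time points for an exact two-sided sign-flip test, with Benjamini-Hochberg adjustment over the 5. All of the 5 but Fh1 minus Sdha set Sucla2 or Mdh2, already called higher, against a gene that was not called. Their differences reuse the values behind those calls and are no separate support for them. Mdh2 exceeded Mdh1 by 0.25 ± 0.28 (SD, n = 11), at 10 of 11 time points (exact p = 0.0166, adjusted 0.0208). This difference was not called in the reduced set, where it was 0.19 at 9 of 11 time points (exact, adjusted p = 0.117), nor with block centring, where it was 0.12 (exact, adjusted p = 0.238). The block of 540 probes that holds Mdh1 had a median below that of the array on most arrays, by 0.13 on average, and its part in the difference was not tested beyond this centring. Mdh1 lies at the second of every 20 places, which the reduced set keeps. On 18 arrays with the first 4 places left out on the raised ones, Mdh2 exceeded Mdh1 by 0.25 over 9 time points. This difference stayed called (exact, adjusted p = 0.0439). Mdh2 exceeded Cs, the citrate synthase that uses the oxaloacetate made by Mdh2, by 0.32 ± 0.27 (SD, n = 11), at 10 of 11 time points (exact p = 0.00195, adjusted 0.00488).

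Among subunits of succinyl-CoA ligase, the ATP-specific one stood above the other 2. Sucla2 exceeded Suclg2 by 0.32 ± 0.18 (SD, n = 11), at 10 of 11 time points, with means of 0.33 for Sucla2 and 0.01 for Suclg2 (exact p = 0.00195, adjusted 0.00488). It exceeded Suclg1 by 0.34 ± 0.30 (SD, n = 10), at 7 of 10 time points, with means of 0.34 for Sucla2 and 0.00 for Suclg1 (exact p = 0.0156, adjusted 0.0208). Both pairs share the values of Sucla2 that gave its call above, so they are no separate support for it. Both differences stayed called in the reduced set (exact, adjusted p = 0.00977 and 0.0228).

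Cs, citrate synthase, brings acetyl-CoA into the cycle. Its probe 1497, at chr10:128337727-128362482, had values on 18 arrays, from -0.73 through a median of -0.005 to 0.28, with 8 above 0 and 9 below. The mean was -0.03 ± 0.27 (SD, n = 11, limma adjusted p = 0.801). The low end was the first array of time point 6, the only one with a value there, at -0.73, and the first array of time point 7 read -0.60 where the second read 0.14. Cs was called lower at time point 6 in the reduced set (-0.69, limma adjusted p = 0.00893), where 8.66% of all genes tested were called lower.

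Idh2 had the widest range of the members. It is the mitochondrial isocitrate dehydrogenase that uses NADP, and it can run towards isocitrate from 2-oxoglutarate. Its probe 382, at chr7:80094845-80118608, had values on 19 arrays, from -0.62 through a median of -0.06 to 1.84, with 8 above 0 and 11 below. The single array of time point 5 read 1.84, the first array of time point 3 read 0.54 and the first array of time point 6 read 0.53. Both arrays of time point 7 were low, at -0.62 and -0.45, as were those of time point 10, at -0.41 and -0.53. The mean over time points was 0.09 ± 0.64 (SD, n = 11, limma adjusted p = 0.718), and without time point 5 it was -0.08. Of all genes tested, 93.8% had a smaller SD over time points.

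The high values of Idh2 at time points 5 and 6 stand on the arrays with raised spots. Probe 382 is at the second of every 20 places, where the median was 1.24 at time point 5 and 0.33 on the raised array of time point 6, whereas on the other 18 arrays it lay between -0.07 and 0.05. Among spots of that place, 154 of 522 read higher than Idh2 at time point 5, and 110 of 309 did so on the raised array of time point 6. Against the median of that place, Idh2 read 0.60 at time point 5 and 0.20 on the first array of time point 6. Mdh1, at the same place, read -0.02 at time point 5 and 0.33 on the first array of time point 6. Against the median of that place, Mdh1 read -1.26 at time point 5, which has 1 array.

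**Figure D3:**
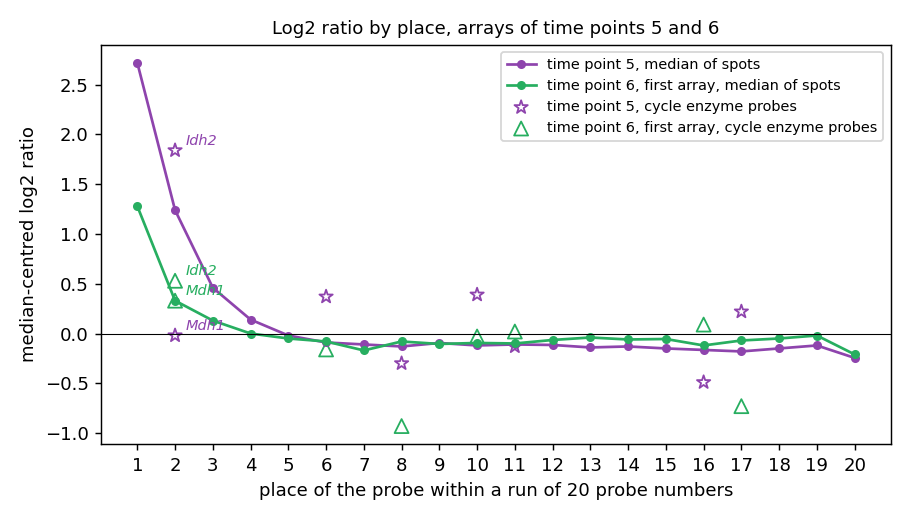
Median of the centred log2 ratio by place within a run of 20 probe numbers, at time point 5 and on the raised array of time point 6 (lines), with the cycle enzyme probes as open stars (time point 5) and open triangles (time point 6). The medians fall from 2.72 at the first place to 1.24 at the second and -0.02 at the fifth on the array of time point 5, and Idh2, at the second place, reads 1.84 there.

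Idh3a, the catalytic subunit of the NAD-dependent isocitrate dehydrogenase, had a value on 1 array, the second of time point 1, at -0.08. Its difference from Idh2 could therefore be taken at 1 time point and was not tested. Ogdh and Dlst are the first and second components of the 2-oxoglutarate dehydrogenase complex, where carbon from glutamine enters. Ogdh, probe 5428 at chr11:6291597-6359094, had values on 4 arrays, which read -0.34 at time point 1, -0.50 at time point 7, -0.14 at time point 9 and 0.63 at time point 10. These 4 values, 3 below 0 and 1 above, averaged -0.09 ± 0.50 (SD, n = 4) and were too few for the test.

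Dlst, at chr12:85110822-85134091, has probes 571 and 3748, which did not read alike. On the 15 arrays where both had a value, probe 571 read above probe 3748 on 13, by 0.48 at the median, but at time point 10 (second array) probe 571 read -1.33 and probe 3748 read 0.62. Averaged by gene, Dlst had values on 19 arrays, from -0.46 through a median of -0.005 to 0.67, and a mean of -0.06 ± 0.25 (SD, n = 11, limma adjusted p = 0.579). Tested singly, probe 571 averaged 0.06 ± 0.57 (SD, n = 9, limma adjusted p = 0.829) and probe 3748 averaged -0.16 ± 0.21 (SD, n = 11, limma adjusted p = 0.0861). The difference between probes was thus larger than either mean.

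Fh1, fumarase, hydrates fumarate to malate and so supplies the substrate of Mdh2. Its probe 13136, at chr1:175601378-175625635, had values on 18 arrays, from -0.49 at time point 5 through a median of -0.22 to 0.14 on the first array of time point 2. Values were below 0 on 12 arrays and above 0 on 6. The mean was -0.14 ± 0.19 (SD, n = 11), below 0 at 8 of 11 time points, the lowest of the members (limma p = 0.0399, adjusted 0.118). It was set against Sdha, the flavoprotein subunit of succinate dehydrogenase that produces fumarate, from which it differed by -0.03 ± 0.24 (SD, n = 10), with 5 time points on each side (exact p = 0.730).

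**Figure D4:**
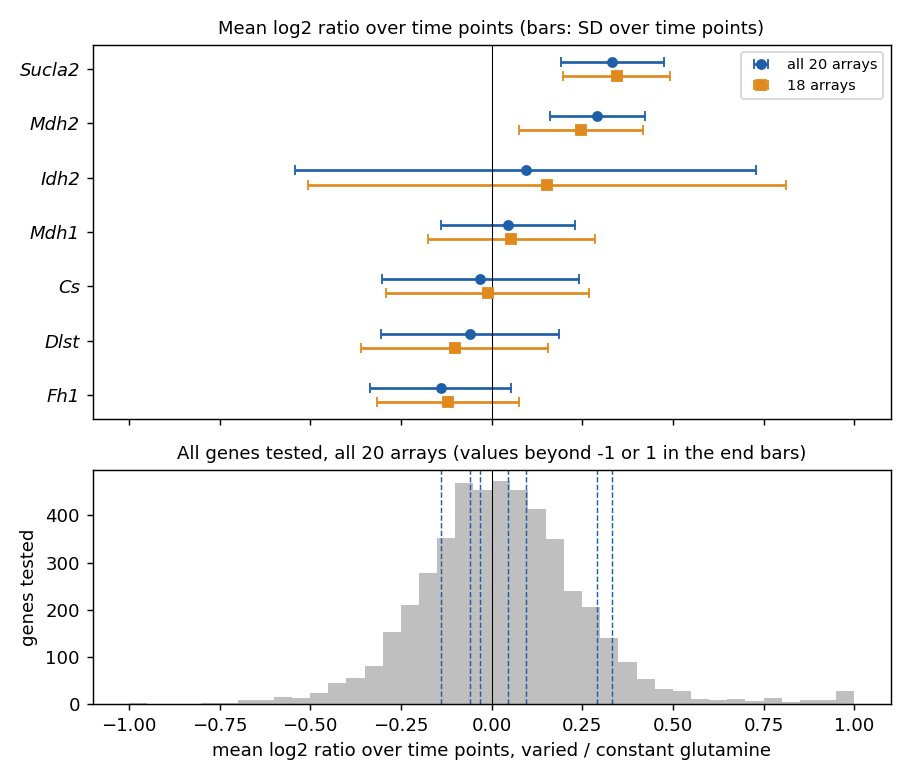
Upper panel: mean log2 ratio over time points of the 7 tested members with bars of 1 SD over time points, for all 20 arrays (circles) and 18 arrays (squares). Lower panel: number of genes by mean log2 ratio, with dashed lines at the members; Sucla2 at 0.33 and Mdh2 at 0.29 stand right of most genes.

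In order of their means the members ran Sucla2, Mdh2, Idh2, Mdh1, Cs, Dlst and Fh1. Neighbours in this order were not tested against each other. The steps were 0.04 ± 0.20, 0.20 ± 0.63, 0.05 ± 0.69, 0.08 ± 0.37, 0.03 ± 0.46 and 0.08 ± 0.32 (SD of the difference over 11 time points), each smaller than its SD. The first of the neighbours was the higher one at 6, 9, 3, 6, 6 and 7 of 11 time points. The members did not share one course over time. At the 11 time points between 3 and 6 members lay above 0, with 6 of 7 at time points 3 and 6 and 3 of 7 at time point 8. Across the 11 time-point means, the correlation between members, given as a description over values from the same arrays, ran from -0.78 for Mdh2 with Fh1 to 0.61 for Mdh1 with Fh1. Sucla2 and Mdh2 correlated with r = -0.13 over all arrays and 0.57 in the reduced set.

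Whether a ratio differed among time points was asked with limma's moderated F-test on all 20 arrays, for genes measured on at least 16 of them. No member was called (0 of 7, against 7% of the 3744 genes tested). Idh2 was the only member with an unadjusted p under 0.05 (F = 5.81, limma adjusted p = 0.0515). The other 6 members had adjusted p between 0.506 and 0.827. In the reduced set, where 33.3% of 3180 genes were called, Idh2 and Dlst were called (limma adjusted p = 1.01e-12 and 0.0417). The same 18 arrays were also fitted with the first 4 of every 20 places left out on the raised ones. This fit had a limit below 16 arrays, and 25.7% of 3939 genes were called. Idh2, with values on 15 arrays, stayed called on 9 time points (F = 3.61, limma adjusted p = 0.00680) and Dlst did not (0.0816).

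At single time points, 1 of 77 values of the members was called higher with all arrays, beside 2.09% of all such values over genes, and 0 were called lower, beside 1.48%. That value was Idh2 at time point 5, at 1.84 with a standard error of 0.29 (limma adjusted p = 0.00120), where 9.32% of genes were called higher. Time point 5 has 1 array, which is assumed to vary like the others. In the reduced set, with the error that depends on the choice of arrays, 7 of 76 values were called higher, beside 9.71%, and 2 lower, beside 5.76%. Sucla2 was called higher at time points 1 (0.47), 2 (0.52) and 4 (0.52), with limma adjusted p of 0.00659, 0.0140 and 0.00266, beside 18.5%, 3.11% and 18.6% of genes called higher. Mdh2 was called higher at time points 3 (0.46) and 4 (0.41), with limma adjusted p of 0.0140 and 0.0182, and 8.5% of genes were called higher at time point 3. Idh2 was called higher at time points 5 (1.89) and 6 (0.57), beside 15.1% and 7.6% of genes, and lower at time point 7 (-0.54, limma adjusted p = 0.00149), beside 11.6% called lower there. With 18 arrays and the first 4 of 20 places left out on the raised ones, the calls of Sucla2 and Mdh2 and those of Cs at time point 6 and Idh2 at time point 7 stayed, and Idh2 had no value on the raised arrays.

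Genes around the cycle were followed as 6 further lists of 56 genes, of which 16 were measured often enough for the test of the mean. None of the 16 was called by limma, 1 had an unadjusted p under 0.05, and the sign-flip test called 1. That gene was Sdhc, a membrane anchor of succinate dehydrogenase, at 0.17 ± 0.21 (SD, n = 11, above 0 at 10 time points and 0 at the other, limma adjusted p = 0.0680). Among other enzymes of the cycle 5 of 12 could be tested, and beside Sdhc the largest mean was that of Sdha, at -0.14 ± 0.25 (SD, n = 10, limma adjusted p = 0.215). Of 13 genes of pyruvate entry 3 could be tested, with Pcx, the pyruvate carboxylase that fills the cycle from pyruvate, at 0.16 ± 0.32 and Pdp2, a phosphatase of pyruvate dehydrogenase, at 0.10 ± 0.27 (SD, n = 11 each). Of 8 genes of glutamine entry 2 could be tested, Glud1, glutamate dehydrogenase, at 0.07 ± 0.21 (SD, n = 11) and Got1, the cytosolic aspartate aminotransferase, at 0.03 ± 0.29 (SD, n = 9). Of 10 mitochondrial carriers 3 could be tested, led by the glutamate carrier Slc25a22 at 0.15 ± 0.24 and the carnitine carrier Slc25a20 at 0.12 ± 0.19 (SD, n = 11 each); with the time point as a random block, Slc25a22 was called. Of 6 genes of exit and NADPH supply, Acly, ATP citrate lyase, was tested, at -0.07 ± 0.22 (SD, n = 11). Of 7 regulators of mitochondrial genes, Myc averaged 0.45 ± 0.79 (SD, n = 10, limma adjusted p = 0.163) and Gabpa 0.05 ± 0.18 (SD, n = 11), while Ppargc1a, Esrra, Nrf1 and Tfam were not tested.

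Markers of cell types were followed on the same arrays, and their relation to the cycle enzyme ratios was not tested. Of 6 hepatocyte markers tested, Alb, albumin, was lower at -0.56 ± 0.21 (SD, n = 9, limma adjusted p = 0.000759) and Krt8 at -0.25 ± 0.19 (SD, n = 10, adjusted 0.0148), and the median of the 6 was -0.16. Fgb, at -0.29 ± 0.35 (SD, n = 11, limma adjusted p = 0.0525), was called lower in the reduced set (limma adjusted p = 0.0338) and with the time point as a random block. Hnf4a (0.07), Apoa1 (0.02) and Apoa2 (-0.08) were not called. Of all genes tested, 9.05% were called lower and 13.6% higher, and in the reduced set 12.2% were called lower. Of 4 fibroblast markers tested Col1a2 was higher at 0.19 ± 0.10 (SD, n = 11, limma adjusted p = 0.00736). Pdgfrb, at -0.43 ± 0.52 and below 0 at 9 of 10 time points (SD, n = 10, limma adjusted p = 0.0529), was called lower in the reduced set (limma adjusted p = 0.0384). Vim, at 0.35 ± 0.95, and Acta2, at 0.05 ± 0.34, were not called (SD, n = 11 each). The 1 macrophage marker tested, Aif1, was higher at 0.69 ± 0.34 (SD, n = 11, limma adjusted p = 0.000759), while Adgre1, Cd68, Csf1r, Lyz2 and Cd14 had too few values. Of the endothelial markers Kdr alone was tested, at 0.35 ± 0.52 and above 0 at 11 of 11 time points (SD, n = 11). It was not called by limma on the time-point means (adjusted p = 0.0959). The sign-flip test called Kdr, as did the fit with the time point as a random block. In the reduced set, which leaves out spots at the first places, Kdr had too few values for the test. The part of raised spots in its mean was not tested. None of 3 cholangiocyte markers was called by limma, by the sign-flip test or with the random block, and none had an unadjusted p under 0.05. The part of any other cell type in the ratios of the cycle enzymes was not tested.

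The genes with profiles most like those of the called members, over 11 time points and among 3024 genes with a value at all of them, were Apbb1 (r = 0.84), Rtp4 (0.83) and Ahcyl2 (0.82) for Mdh2. For Sucla2 they were Slc6a5 (r = 0.94), unnamed probe 3853 (0.90) and Fam204a (0.89). These correlations in the reduced set were 0.72, 0.46 and 0.07 for Mdh2 and 0.24, 0.80 and 0.78 for Sucla2, so that 3 of the 6 fell below 0.5. These are descriptions over values from the same arrays.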

How the data were processed

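The members, lists and tests were chosen with earlier results of these data known. The authors deposited 1 log2 ratio per probe and array, with no counts or intensities used here; base, direction, background correction and normalization are not given in the sources used here, and base 2 is assumed. Array medians of the deposited values lay between 0.05 and 0.435. All 20 arrays were used in the direction deposited. The lowest correlation between any 2 was -0.0667, and a value this near 0 cannot show the direction of an array. Each array was centred on its median, and probes with 1 symbol in the platform annotation were averaged by gene. No group of samples was defined from the data.

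In R 4.3.3 with limma 3.58.1, lmFit and eBayes tested the mean of the 11 time-point means against 0 (value at 9 or more time points), and differences among and at single time points on 20 arrays (value on 16 or more). Time points 5 and 11, with 1 array, took their spread from the others. Where the first 4 of every 20 places were left out, the limit of 16 arrays was lowered. Benjamini-Hochberg adjusted p under 0.05, over all genes tested, counted as called. Scripts were tested on simulated data. Pairs of enzymes were tested with an exact sign-flip test, which needs no centring.

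All 9 members are described; of each other list, up to 4 called genes are named, otherwise the 2 with the largest absolute mean, and for called members the 3 genes most alike. Other centrings, filters, tests and array sets are given in the closing section. For 1 array of time point 4, channel 2 is labelled as lacking glutamine; it was kept, and leaving time point 4 out is an alternative.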

Additional observations from a re-analysis of the deposited data

Results flagged for a closer look

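In the reduced set of 18 arrays, the ratios of 2 members differed among time points by limma's moderated F-test. The error of this test depends on the choice of arrays, which was made from their agreement. For Idh2 the F value was 13.07 (adjusted p = 1.01e-12), with the highest mean at time point 5, at 1.89, and the lowest at time point 7, at -0.54. On the same 18 arrays, with the first 4 of every 20 places left out on the raised ones, F was 3.61 (adjusted p = 0.00680). That fit had a limit below 16 arrays, and Idh2 had values on 15. With all 20 arrays, each centred within places, F was 3.75 (adjusted p = 0.161). For Dlst the F value was 2.40 (adjusted p = 0.0417), with the highest mean at time point 7, at 0.24, and the lowest at time point 8, at -0.44. With 18 arrays and the 4 places left out the adjusted p of Dlst was 0.0816. The 2 probes of Dlst differed by 0.48 at the median.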

How the results depend on the processing

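Sucla2 and Mdh2 stayed higher and called in all 25 alternatives of the mean, at 0.20 to 0.60 for Sucla2 (limma or exact sign-flip adjusted p at most 0.0429) and 0.25 to 0.55 for Mdh2 (at most 0.0245). Leaving out time point 4 is counted 2 times among the 25, for its channel label and as 1 time point left out. Other values moved, and the cause was not tested. Without centring, 2849 genes were higher and 46 lower, against 646 and 430, 4 members were higher in the mean, 1 differed among time points, 19 single values were higher, and Cs (0.23, called), Dlst (0.20) and Fh1 (0.105) changed sign. With a value at all 11 time points 209 genes were lower. Leaving out 1 time point, or the first or second arrays, gave 242 to 783 genes higher and 73 to 543 lower. The means of Mdh1 (-0.02 to 0.0995), Cs (-0.0835 to 0.0393), Idh2 (-0.10 to 0.16) and Dlst (-0.140 to 0.16) then lay on both sides of 0: all 4 changed sign without the first arrays (Cs 0.035), Idh2 without time point 5 (-0.081) and Cs without time point 6. With 18 arrays (no second arrays of time points 6 and 10) and 4 of 20 places left out on the raised ones, 980 genes were higher, 1011 differed among time points, 1 member among them, 5 single values were higher and 2 lower, and Cs (0.00159) and Idh2 (-0.0847) changed sign. Centred within places, 174 genes differed among time points, and 0 single values were higher and 1 lower. The lower value was that of Mdh1 at time point 5. The means of Mdh1 (-0.0675) and Idh2 (-0.0184) then changed sign. In the reduced set 1059 genes differed among time points, 2 members among them, and 7 single values were higher and 2 lower. With a value on all 20 arrays 60 genes differed, and with 12 or more arrays 1 member did. Without 1 array of any time point with 2, 1 to 7 single values were higher and 0 to 2 lower: 2 and 2 without either array of time point 6, 7 and 2 without the first of time point 10 and 6 and 2 without the second. Mdh2 minus Mdh1 was 0.19 in the reduced set and 0.12 with block centring, both no longer called. With 18 arrays and 4 of 20 places left out on the raised ones it was 0.25 and called. Fh1 minus Sdha was -0.24 and called with block centring, and ran from -0.0628 to 0.0206 with 1 time point left out, above 0 without time point 3 or 4.

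Second-minus-first differences of arrays correlated between -0.43 and 0.33 over 36 pairs of time points, 9 of them over 0.1. Whether the first or the second arrays share an effect was not tested beyond the replicate block. With the time point as a random block, 803 genes were higher and 495 lower in the mean, and adding the replicate block gave 804 and 496. In the F-test the replicate block alone gave 188 genes, against 262. With it the members called were unchanged, Sucla2 was 0.33 and Mdh2 0.29. The low number of arrays, and of values for Ogdh and Idh3a, limits all of this.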
